A study of Homo sapiens with 8 samples.

Results

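Transcripts of glycolysis, of lactate export and of the pentose phosphate pathway were compared in human keratinocytes whose mitochondrial respiration had been blocked. The set held 33 genes listed by name: 2 glucose transporters, the enzymes from hexokinase to pyruvate kinase, the PFKFB enzymes and TIGAR, lactate dehydrogenase, the lactate transporters with their chaperone BSG, and 7 enzymes of the pentose phosphate pathway. All 33 were found among the 61806 genes of the deposited table, and all 33 were among the 14893 genes that had at least 10 counts in at least 4 libraries and were therefore tested. The member nearest that minimum was RPIA, with 214 to 296 counts per library. N/TERT-1 is an immortalized line of epidermal keratinocytes, used here without genetic change (WT) and grown in serum-free keratinocyte medium with epidermal growth factor and bovine pituitary extract. A group of 4 cultures received ethanol, the solvent control, and a group of 4 received O/A, that is oligomycin, an inhibitor of the mitochondrial ATP synthase, together with antimycin A, an inhibitor of complex III. The treatment lasted 4 hours, the 4 cultures of each group came from independent experiments, and polyadenylated RNA was sequenced. Every value comes from a single immortalized line at a single time, and no concentrations of the inhibitors are stated for the sequenced cells in particular.

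Glycolysis splits glucose into pyruvate in the cytosol and yields ATP without oxygen. Lactate dehydrogenase then turns pyruvate into lactate and restores the NAD+ that glycolysis uses, and monocarboxylate transporters carry the lactate out of the cell. The pentose phosphate pathway branches off at glucose 6-phosphate and supplies NADPH and ribose. Cells that cannot respire depend on glycolysis for ATP, and many genes of the pathway have several isozymes whose transcripts are controlled separately, with HIF-1 and MYC among the known activators.

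Library totals ranged from 17210404 to 20999927 counts for ethanol, against 17689760 to 19263046 for O/A. All 6 keratinocyte markers examined (KRT5, KRT14, KRT6A, TP63, ITGA6 and COL17A1) were expressed, and their summed FPKM, a level per exon length and library total, was 4194 to 4494 for ethanol, against 3638 to 3794 for O/A. KRT5, the only one of them called by the rule given next, fell by 0.30 on the log2 scale. Of the fibroblast markers COL1A1 gave 2.64 FPKM in ethanol and 2.46 in O/A while COL1A2 had at most 1 count, and the summed level of the 5 fibroblast genes was 2.42 to 2.95 FPKM for ethanol against 2.44 to 2.69 for O/A. Of 4 melanocyte genes MLANA and TYR were at 0 in all 8 libraries, DCT had at most 4 counts and PMEL 17 to 45. Of 3 leukocyte genes PTPRC and CD3E had at most 1 count, while CD68, with 15 to 33 counts, was called with a log2(FC) of 0.56 (adjusted p = 0.0350 by edgeR). The part of these genes in the results was not tested.

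Expression of the 33 genes moved little, and more often down than up. A gene was called upregulated or downregulated where the quasi-likelihood test of edgeR gave a Benjamini-Hochberg adjusted p of at most 0.05 over all tested genes and the log2 fold change, log2(FC), of O/A over ethanol was beyond 0.25 in size. By this rule 5 of 33 members (15.2%) were called, where 34.7% of all tested genes were. The 4 upregulated members were SLC2A3, ENO2, PFKFB2 and SLC16A3, which was 12.1% of the set beside 15.8% of all tested genes. The only downregulated member was PFKFB4, 3.03% of the set beside 18.9% of all tested genes. Beyond a limit of 1 only SLC2A3 remained, 1 of 33 where 5.35% of all tested genes passed. In a bulk sample fewer cells with a transcript and less of it per cell cannot be told apart.

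By the adjusted p alone, with no demand on the size, 24 members (72.7%) passed, where 53.7% of all tested genes did. DESeq2 passed 20 of them, without PFKM, PGD, RPIA and TKT, and the fits without a single library passed 21 to 24 members. Of these, 16 fell (48.5% of members, 27.7% of all tested genes) and 8 rose (26.0% of all tested genes rose). The libraries of the groups did not overlap, on counts scaled for library size and composition, for 21 members (63.6%), where 47.6% of all tested genes did not overlap. O/A was the lower group in 12 of them and the higher in 9, where 24.8% and 22.8% of all tested genes were lower and higher without overlap. The median log2(FC) was -0.06 over the members and -0.00040 over all tested genes. The spread within groups was small, and the coefficient of variation among the 4 ethanol libraries ran from 0.963% to 11.3% over the members with a median of 2.78%, and among the 4 O/A libraries from 1.53% to 8.06% with a median of 2.94%. In what follows, rose and fell stand for genes past the adjusted p, and upregulated and downregulated for those past both limits. Levels are given as mean ± SD over the 4 libraries of a group, and log2(FC) as estimate ± SE.

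**Figure D1:**
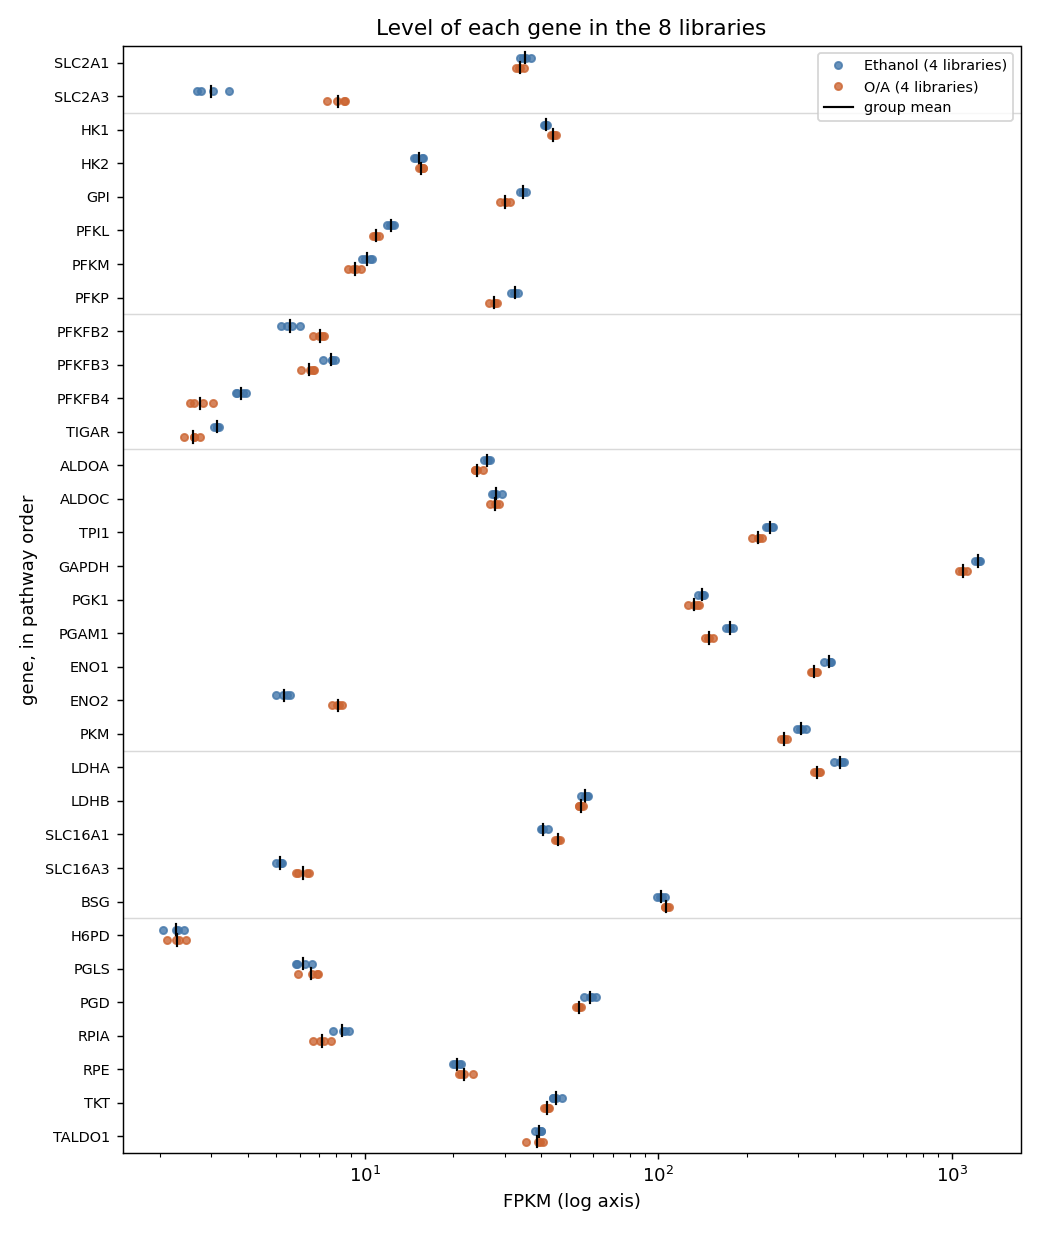
Level of each of the 33 genes in each library, in FPKM on a log axis, with genes grouped by role; each point is a library, with separate colours for the 4 ethanol and the 4 O/A libraries. Levels run from about 2 FPKM for H6PD to over 1000 for GAPDH, and SLC2A3 is the gene whose groups stand farthest apart.

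**Figure D2:**
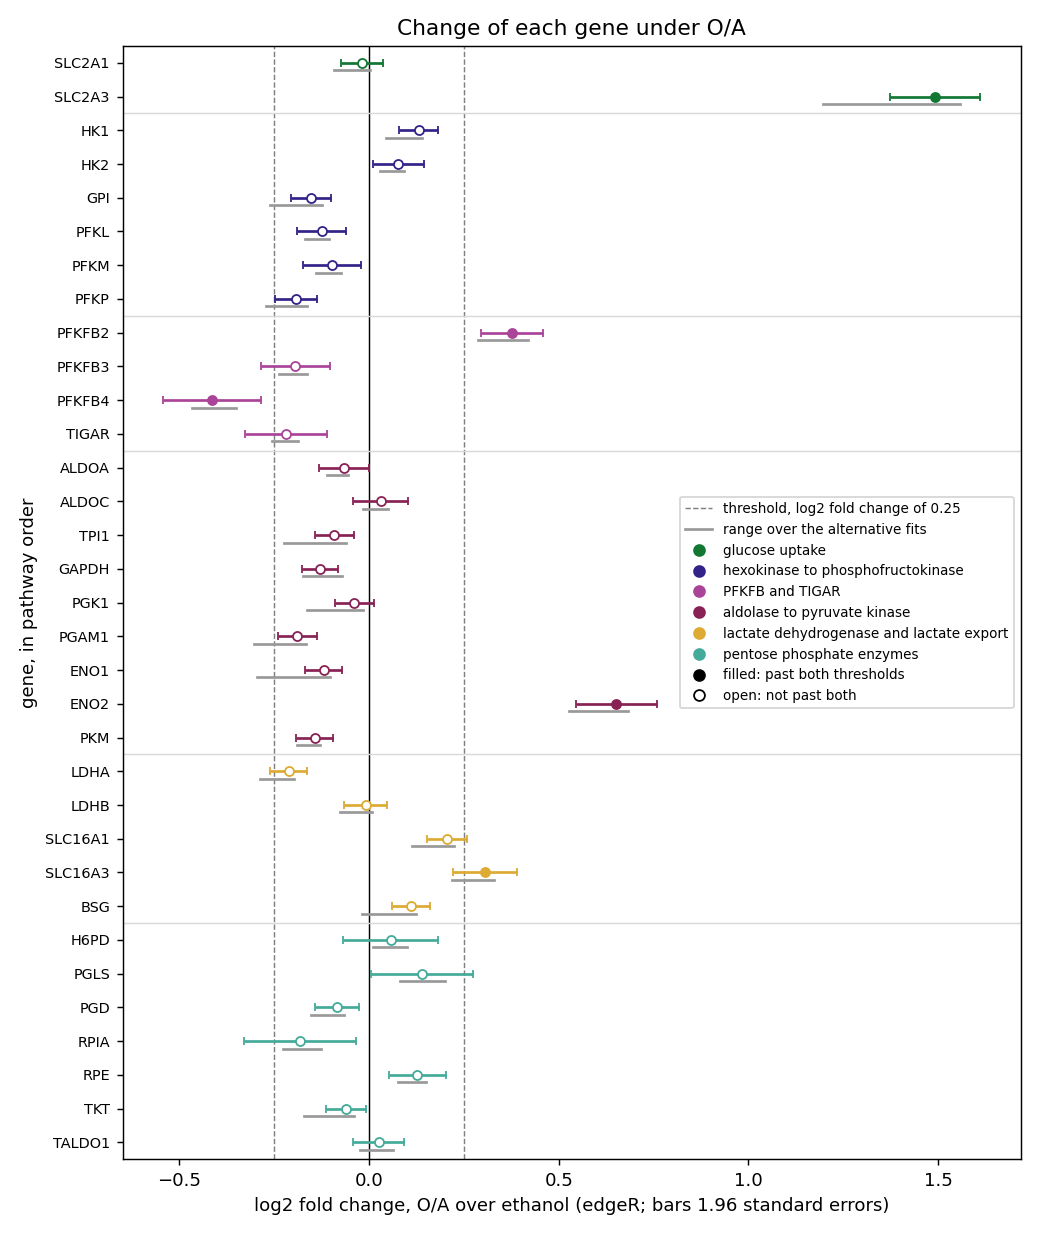
The log2(FC) of each gene, O/A over ethanol, from the edgeR fit, with its 95% interval, the lines at 0 and at 0.25 on either side, and the range over the alternative fits. SLC2A3, ENO2, PFKFB2 and SLC16A3 lie to the right of the upper line and PFKFB4 to the left of the lower line, while most of the chain from GPI to LDHA lies a little to the left of 0.

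The largest change of the set was in the transcript of a glucose transporter, SLC2A3, while uptake itself was not measured. SLC2A3 encodes GLUT3, a glucose transporter of high affinity best known from neurons. Its level was 2.69, 2.77, 3.44 and 3.04 FPKM in the ethanol libraries and 8.50, 8.03, 8.55 and 7.41 FPKM in the O/A libraries. Every O/A library stood above every ethanol library, and the lowest O/A value was over the highest ethanol value by more than the whole spread within either group. The fitted change was 2.81-fold, a log2(FC) of 1.49 ± 0.060 (SE), adjusted p = 4.32e-23 by edgeR, and it ranked 161 among the rises of 14893 genes. The exact permutation test over the 8 libraries gave p = 0.0286, two-sided, the smallest that 4 against 4 allows. SLC2A3 lies on chromosome 12 (GRCh38, 7919230 to 7936187, minus strand), and its near copy SLC2A14 had at most 2 counts in any library. Its 3 pseudogenes had none.

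SLC2A1 encodes GLUT1, the main glucose transporter of cultured keratinocytes. It had 34.57, 33.85, 36.95 and 35.51 FPKM in ethanol and 34.76, 33.69, 32.86 and 33.51 FPKM in O/A, and the groups overlapped. Its log2(FC) of -0.02 had a 95% interval from -0.07 to 0.04, adjusted p = 0.627 by edgeR. SLC2A1 thus stayed the more abundant of the pair in every library, while SLC2A3 made up 7.80% ± 0.552 (SD, n = 4) of their summed FPKM in ethanol and 19.4% ± 1.05 in O/A. The sum of the pair was 38.2 ± 1.66 FPKM in ethanol and 41.8 ± 1.01 in O/A.

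From hexokinase to phosphofructokinase no member was called. At an unadjusted p under 0.05 all 6 passed the edgeR test, as did 8628 of all 14893 tested genes. DESeq2 called 0, and a quantile normalization with limma called 2, GPI and PFKP. HK1, the hexokinase of most tissues, rose from 41.4 ± 0.399 to 43.9 ± 0.737 FPKM, with a log2(FC) of 0.13 ± 0.026 (SE), adjusted p = 2.96e-05. Under quantile normalization its value was 0.04 with adjusted p = 0.127. HK2, the inducible hexokinase that binds mitochondria, had 14.8 to 15.8 FPKM with ethanol against 15.3 to 15.8 with O/A, and its log2(FC) of 0.08 missed the threshold at an adjusted p of 0.0523. These FPKM ranges overlapped, while the scaled counts of HK2 did not. HK2 took 26.9% ± 0.764 of the hexokinase sum in ethanol and 26.2% ± 0.239 in O/A, and the ranges of this share overlapped.

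GPI, which turns glucose 6-phosphate into fructose 6-phosphate, had 34.54, 34.63, 35.40 and 33.84 FPKM in ethanol and 31.25, 28.95, 30.06 and 30.31 FPKM in O/A. All 4 O/A libraries lay below the ethanol libraries, and the log2(FC) was -0.15 ± 0.027, adjusted p = 2.50e-06. The 3 phosphofructokinase genes, whose enzyme makes the committed step of glycolysis, all fell. PFKP, the platelet form and the most abundant here, went from 32.5 ± 0.738 to 27.5 ± 0.709 FPKM with a log2(FC) of -0.19, PFKL, the liver form, from 12.3 ± 0.268 to 10.9 ± 0.218 with -0.12, and PFKM, the muscle form, from 10.2 ± 0.370 to 9.25 ± 0.407 with -0.10. Their adjusted p-values by edgeR were 5.60e-08, 0.00111 and 0.0308, and of the 3 only PFKM overlapped between the groups on scaled counts. The span of PFKM overlaps SENP1 on the other strand, whose mean count was 57.9% of that of PFKM and whose log2(FC) was -0.07. A part of the reads of PFKM thus cannot be told apart from those of SENP1. PFKM did not pass under DESeq2 (adjusted p = 0.102), nor in 5 of the 8 fits without a single library: ethanol replicate 3 or 4, or O/A replicate 2, 3 or 4, the value without O/A replicate 3 being -0.07. The summed FPKM of the 3 genes was 54.9 ± 0.462 in ethanol and 47.7 ± 0.920 in O/A. The share of each form in that sum overlapped between the groups, so the isozyme makeup did not separate them.

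The PFKFB enzymes make and break fructose 2,6-bisphosphate, the strongest activator of phosphofructokinase, and here their transcripts moved in opposite directions. PFKFB2, the form best known from heart, had 5.20, 5.43, 5.65 and 6.02 FPKM in ethanol and 6.66, 7.28, 6.99 and 7.16 FPKM in O/A. The O/A libraries were all above the ethanol libraries, and the log2(FC) was 0.38 ± 0.042, a 1.30-fold change with adjusted p = 6.76e-11 by edgeR. PFKFB2 lies on chromosome 1 (207034366 to 207081024, plus strand), and its span overlaps YOD1 on the other strand. The counts of YOD1 were 642 to 810 for ethanol against 850 to 907 for O/A (log2(FC) 0.40), and since the strand setting of the counting was not given in the sources used here, reads of the pair cannot be told apart.

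PFKFB4, a form known for its induction under low oxygen, was the only member downregulated. Its level was 3.64, 3.67, 3.94 and 3.86 FPKM in ethanol and 2.53, 2.62, 3.03 and 2.81 FPKM in O/A. The groups did not overlap, and counts of 394 to 495 with ethanol stood against 273 to 356 with O/A. The log2(FC) was -0.41 ± 0.066, or 0.751-fold, with adjusted p = 3.87e-07 by edgeR. PFKFB4 lies on chromosome 3 (48517684 to 48562015, minus strand). It overlaps UCN2 on the same strand, whose mean count was 29.3% of that of PFKFB4 and whose log2(FC) was -0.17.

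PFKFB3, the form with the highest kinase activity, fell from 7.65 ± 0.301 to 6.47 ± 0.295 FPKM, with a log2(FC) of -0.19 with adjusted p = 3.50e-04. TIGAR, a phosphatase that lowers fructose 2,6-bisphosphate, had 3.18, 3.14, 3.06 and 3.14 FPKM in ethanol and 2.62, 2.62, 2.75 and 2.43 FPKM in O/A. It fell by 0.22 on the log2 scale (adjusted p = 6.77e-04), and its groups did not overlap. Within the summed FPKM of the PFKFB genes, the share of PFKFB2 was 32.8% ± 1.67 in ethanol and 43.2% ± 1.00 in O/A, that of PFKFB3 45.0% ± 1.95 and 39.9% ± 1.80, and that of PFKFB4 22.2% ± 0.389 and 16.9% ± 1.36. None of these 3 shares overlapped between the groups. PFKFB3 had the largest share in every ethanol library and PFKFB2 in 3 of the O/A libraries, the forms being tied at 6.66 FPKM in O/A replicate 1, and these shares rest on PFKFB2 counts whose reads cannot be told apart from those of YOD1. Their summed level was 16.56 to 17.51 FPKM with ethanol against 15.85 to 16.66 with O/A, and these ranges overlapped.

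**Figure D3:**
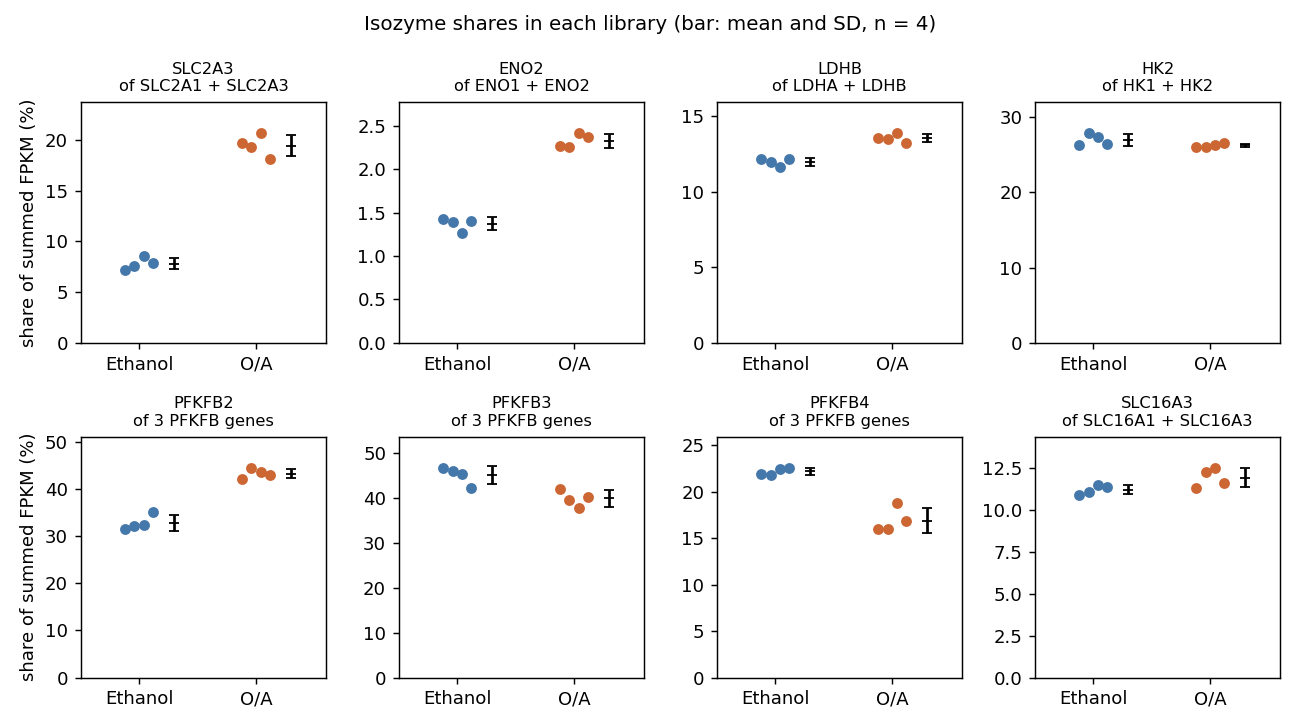
Share of selected isozymes in the summed FPKM of their step, in percent, with a point per library and the mean ± SD of the 4 ethanol and the 4 O/A libraries. The shares of SLC2A3, PFKFB2, ENO2 and LDHB are higher in O/A, those of PFKFB3 and PFKFB4 are lower, and those of HK2 and SLC16A3 overlap. The share of ALDOC, which was higher in O/A, and those of the phosphofructokinases, which overlapped, are not drawn.

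From aldolase to pyruvate kinase most of the abundant enzymes fell by small amounts, PGK1 being the exception. Of 9 genes 5 fell and 1 rose by the adjusted p, and the median log2(FC) was -0.09. GAPDH, the dehydrogenase that makes the NADH of glycolysis and a common reference gene for normalization, was the most abundant member. Its level was 1242, 1233, 1246 and 1204 FPKM in ethanol and 1127, 1084, 1059 and 1094 FPKM in O/A. No O/A library reached the lowest ethanol library, and the log2(FC) was -0.13 ± 0.024, adjusted p = 9.76e-06 by edgeR. Under quantile normalization its value was -0.07 with adjusted p = 0.0929. As a share of all counts in a library GAPDH took 0.295% ± 0.00451 in ethanol and 0.261% ± 0.00679 in O/A. The 65 genes named as its pseudogenes held at most 0.310% of its counts in any library.

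PGAM1, the phosphoglycerate mutase, had the largest fall of the 9. It had 179.2, 174.0, 176.3 and 170.8 FPKM in ethanol and 154.3, 144.8, 148.5 and 147.8 FPKM in O/A, with no overlap. Its log2(FC) was -0.19 ± 0.026, adjusted p = 1.96e-08 by edgeR. PKM, the pyruvate kinase, fell from 306.8 ± 8.53 to 269.0 ± 5.22 FPKM, with a log2(FC) of -0.14, and these gene counts do not separate its splice forms. TPI1, the triose phosphate isomerase, fell from 240.1 ± 5.91 to 218.2 ± 7.54 FPKM, with a log2(FC) of -0.09. Their adjusted p-values were 1.57e-06 and 0.00255, and neither gene overlapped between the groups. Without O/A replicate 2 TPI1 was at -0.06 with adjusted p = 0.0660. The other genes did not pass. PGK1, the phosphoglycerate kinase, had a log2(FC) of -0.04 with a 95% interval from -0.09 to 0.01, the aldolase ALDOA -0.07 with an interval from -0.13 to -0.00057, and the aldolase ALDOC 0.03 with an interval from -0.04 to 0.10. All 3 overlapped between the groups on scaled counts.

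The enolases parted. ENO1, the form of most tissues, had 384.0, 385.0, 387.4 and 368.4 FPKM in ethanol and 347.4, 335.1, 331.3 and 346.0 FPKM in O/A. It fell by 0.12 on the log2 scale (adjusted p = 4.50e-05), and its groups did not overlap. ENO2, the neuronal form, had 5.57, 5.42, 4.98 and 5.26 FPKM in ethanol and 8.04, 7.75, 8.19 and 8.38 FPKM in O/A. Every O/A library was well above the ethanol libraries, on counts of 367 to 473 with ethanol against 609 to 675 with O/A. The log2(FC) of ENO2 was 0.65 ± 0.055, a 1.57-fold change with adjusted p = 7.26e-15 by edgeR. ENO2 lies on chromosome 12 (6913745 to 6923698, plus strand), and it overlaps LRRC23 on the same strand, whose mean count was 16.6% of that of ENO2 and whose log2(FC) was -0.26. ENO2 was a minor part of enolase transcripts in both groups, at 1.37% ± 0.0717 in ethanol and 2.32% ± 0.0762 in O/A, and the enolase sum went from 386.5 ± 8.64 to 348.1 ± 8.08 FPKM.

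LDHA and the lactate transporters moved in opposite directions. LDHA, the subunit that favours lactate formation, had 417.3, 422.6, 429.6 and 395.8 FPKM in ethanol and 354.7, 346.1, 339.9 and 352.4 FPKM in O/A. All O/A libraries lay below all ethanol libraries. LDHA fell by 13.7%, a log2(FC) of -0.21 ± 0.025 with adjusted p = 3.44e-10 by edgeR, which stayed inside the limit of 0.25. With log2(FPKM + 0.1), log2(FPKM + 1) or quantile normalization and limma, LDHA passed that limit as well. LDHB, the other subunit, had 54.6 to 57.7 FPKM with ethanol against 53.7 to 55.5 with O/A. Its log2(FC) of -0.01, with an interval from -0.07 to 0.05, did not pass. LDHB took 11.6% to 12.2% of the summed FPKM of both subunits with ethanol against 13.2% to 13.9% with O/A, without overlap.

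The transporters were higher in O/A. SLC16A1 encodes MCT1, which carries lactate in either direction. It had 42.04, 39.87, 40.20 and 40.39 FPKM in ethanol and 46.30, 45.50, 45.28 and 44.58 FPKM in O/A, without overlap, and rose by a log2(FC) of 0.21 ± 0.027, adjusted p = 4.22e-09. SLC16A3 encodes MCT4, the exporter typical of glycolytic cells. It had 5.16, 4.98, 5.23 and 5.19 FPKM in ethanol and 5.92, 6.37, 6.48 and 5.85 FPKM in O/A. The O/A libraries were all higher, and the log2(FC) was 0.31 ± 0.043, a 1.24-fold change with adjusted p = 3.00e-08 by edgeR. On log2(FPKM + 1) the change of SLC16A3 was 0.22 and no longer past the limit.

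SLC16A3 lies on chromosome 17 (82217934 to 82261129, plus strand). It overlaps CSNK1D on the other strand, whose mean count was 341.0% of that of SLC16A3 and whose log2(FC) was 0.09, so a part of its reads cannot be told apart from those of CSNK1D. SLC16A3 made up 11.2% ± 0.264 of the transporter sum in ethanol and 11.9% ± 0.557 in O/A, with overlap, and the sum of both transporters was 45.8 ± 1.01 FPKM in ethanol and 51.6 ± 0.785 in O/A. BSG, basigin, brings both transporters to the cell surface. It had 98.8 to 105.1 FPKM with ethanol against 105.2 to 108.9 with O/A, and rose by a log2(FC) of 0.11 with adjusted p = 2.49e-04 by edgeR, but under quantile normalization the value was -0.02 with adjusted p = 0.523.

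In the pentose phosphate pathway no member was called by edgeR, DESeq2, or limma on quantile-normalized counts or on log2(FPKM + 0.1). An unadjusted edgeR p under 0.05 was reached by 5 of 7, and by 8628 of all 14893 tested genes. The median log2(FC) of the 7 genes was 0.03, and RPE was the only member whose groups did not overlap on scaled counts. RPE, the epimerase of ribulose 5-phosphate, had 20.91, 20.30, 21.36 and 20.02 FPKM in ethanol and 23.39, 21.23, 21.79 and 20.95 FPKM in O/A. It rose by a log2(FC) of 0.13 ± 0.038 (adjusted p = 0.00438), although the FPKM values of the groups overlapped. RPE did not pass on log2(FPKM + 0.1), at 0.08 with adjusted p = 0.103, on log2(FPKM + 1), or under quantile normalization. KANSL1L, which overlaps RPE on the other strand, had a mean count of 10.8% of that of RPE and a log2(FC) of 1.30.

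Of the oxidative enzymes, which yield NADPH at their dehydrogenase steps, PGD, the 6-phosphogluconate dehydrogenase, fell from 58.7 ± 2.24 to 53.6 ± 0.996 FPKM with a log2(FC) of -0.08 (adjusted p = 0.0124). H6PD, the hexose 6-phosphate dehydrogenase of the endoplasmic reticulum, had 2.27 ± 0.154 and 2.29 ± 0.140 FPKM with an interval of the log2(FC) from -0.07 to 0.18, and the lactonase PGLS 6.15 ± 0.372 and 6.57 ± 0.463 FPKM with an interval from 0.01 to 0.28. PGD missed the adjusted p under DESeq2 (0.0551) and without ethanol replicate 3 (0.0657). Of the branch that makes and shuffles sugar phosphates, RPIA, the ribose 5-phosphate isomerase, fell by 0.18 on the log2 scale (adjusted p = 0.0377) and TKT, the transketolase, by 0.06 (adjusted p = 0.0473). Under DESeq2 RPIA had an adjusted p of 0.0964 and TKT of 0.143. RPIA missed the adjusted p in 6 of the 8 fits without a single library, all but those without ethanol replicate 4 or O/A replicate 1. TKT missed it in 5, those without ethanol replicate 1 or 3 or O/A replicate 2, 3 or 4, and its value without O/A replicate 2 was -0.04. TALDO1, the transaldolase, had 38.0 to 39.9 FPKM with ethanol against 35.6 to 40.6 with O/A, with a log2(FC) of 0.03 and an interval from -0.04 to 0.09. The groups overlapped for each of these 6 genes on scaled counts, although the FPKM values of PGD, RPIA and TKT, which carry no further scaling, were all lower in O/A.

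The members were also set by level. Of the 8 members at 100 FPKM or more in ethanol, 6 fell and 1, BSG, rose by the adjusted p, with a median log2(FC) of -0.12. Of all 294 tested genes at that level 73 fell and 134 rose, with a median of 0.05. Of the 10 members under 10 FPKM, 4 rose and 4 fell by the adjusted p, with a median of 0.10; 4 were upregulated and 1 downregulated by both limits. Of the 10676 tested genes under that level 2413 rose and 2802 fell by the adjusted p, 1768 were upregulated and 2183 downregulated, and the median was -0.01. A difference between the levels was not tested. All 33 members together took 1.55% ± 0.0325 of the counts of an ethanol library and 1.40% ± 0.0266 of an O/A library, with ranges of 1.51% to 1.58% and 1.37% to 1.43%. The 9 enzymes GPI, ALDOA, TPI1, GAPDH, PGK1, PGAM1, ENO1, PKM and LDHA gave most of this, at 1.24% ± 0.0286 and 1.09% ± 0.0242.

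Promoter sequence was examined because several members are textbook targets of HIF-1. The letters ACGTG, a form of its core site, were searched, and the form GCGTG was not. In what follows the core means ACGTG only. In the 250 bases before the transcription start given by RefSeq (GRCh38.p14), available for 30 of the 33 genes and not for SLC2A3, SLC16A1 and PFKFB2, this core occurred on either strand in 10 genes (33.3%), beside 5101 of 27305 genes of the table (18.7%). Only the first start listed for each gene name was used. The 7811 further entries that shared a name were not searched, and another start could give another result. The 10 genes were HK2, GPI, TIGAR, ALDOA, ALDOC, GAPDH, PGK1, ENO2, LDHA and PGD. By the adjusted p 5 of the 10 fell, 1 rose and 4 did not pass, and of the 20 without ACGTG 11 fell, 4 rose and 5 did not pass. Genes without ACGTG can still hold GCGTG, as the windows of ENO1, PFKL and PFKFB4 did, so this split is by letters and not by HIF-1 sites. CACGTG, the E-box that MYC and MondoA bind and that contains the core, was found in ALDOC, GAPDH and LDHA, 3 of 30 genes beside 6.49% of the table. TGATGNAA, the element of ATF4, was found in HK1 only, or 3.33% beside 3.19%. The windows of LDHA and GAPDH, which fell, and of ENO2, the only one of the 10 that rose, follow from 5′ to 3′ on the strand of each gene, with the ACGTG core in capitals on whichever strand it reads and the E-box where the capitals read CACGTG. They are chr11:18394313-18394562 (plus strand), chr12:6535014-6535263 (plus strand) and chr12:6914330-6914579 (plus strand). The windows of GAPDH and ENO2 lie inside the gene spans of the deposited counts, which start at 6534512 and 6913745. Of the other genes with the core, the windows of GPI, TIGAR, PGK1 and PGD, which are not printed, also lie inside the gene spans.
LDHA: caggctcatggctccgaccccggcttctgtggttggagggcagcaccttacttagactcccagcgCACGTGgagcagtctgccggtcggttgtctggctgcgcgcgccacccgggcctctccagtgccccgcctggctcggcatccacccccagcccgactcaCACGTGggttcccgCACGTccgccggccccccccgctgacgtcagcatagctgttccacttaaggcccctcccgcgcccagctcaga
GAPDH: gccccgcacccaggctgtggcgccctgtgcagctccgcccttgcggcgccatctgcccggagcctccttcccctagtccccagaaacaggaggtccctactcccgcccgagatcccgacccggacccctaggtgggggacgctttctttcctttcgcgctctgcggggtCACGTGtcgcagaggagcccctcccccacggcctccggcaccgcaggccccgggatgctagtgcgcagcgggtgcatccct
ENO2: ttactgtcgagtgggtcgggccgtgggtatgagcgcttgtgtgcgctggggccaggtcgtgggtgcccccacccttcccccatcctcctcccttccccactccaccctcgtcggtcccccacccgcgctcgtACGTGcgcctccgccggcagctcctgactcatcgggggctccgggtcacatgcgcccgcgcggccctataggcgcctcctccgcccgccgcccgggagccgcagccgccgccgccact
The window of LDHA holds 3 sites, that of GAPDH 1 and that of ENO2 1. The match of letters is a description and shows no binding.

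Neighbouring genes were examined in lists of their own. By the same rule 34.7% of all tested genes were called, 15.8% up and 18.9% down. Of 18 other glycolysis isozymes only 6 passed the filter on counts, and edgeR called 0 of them, with 1 at an unadjusted p under 0.05 and 0 called by DESeq2, by quantile normalization or by limma on log2(FPKM + 0.1). PGK2, the testis form, was at 0 in all libraries. Of 9 tested among 16 other hexose and monocarboxylate transporters, SLC2A12 (0.48, adjusted p = 4.38e-05), SLC2A13 (0.31) and SLC5A1 (0.77, from only 13 to 43 counts) were upregulated and SLC2A6 (-0.30) was downregulated. Of 6 tested neighbours of the pentose phosphates, edgeR called 0, with 1 at an unadjusted p under 0.05, 0 by DESeq2 and by quantile normalization, and 1 by limma on log2(FPKM + 0.1).

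The hexosamine branch builds sugars for glycosylation from fructose 6-phosphate. Of 13 genes of glycogen and hexosamine metabolism 4 were upregulated and 2 downregulated, where 15.8% and 18.9% of all tested genes were. GFPT1, the rate-limiting enzyme of the hexosamine branch, rose from 10.8 ± 0.312 to 28.2 ± 0.514 FPKM, with a log2(FC) of 1.43 ± 0.030 with adjusted p = 1.78e-39 by edgeR. Its libraries did not overlap, at 10.37 to 11.03 FPKM for ethanol against 27.78 to 28.88 for O/A. PGM3 and UAP1, later enzymes of that branch named here after their values were seen, had log2(FC) of 0.84 and 0.64. GNPNAT1, the remaining later enzyme of the list, had -0.05 and did not pass (adjusted p = 0.151). GYS1, the glycogen synthase, had the largest fall of the list, from 23.5 ± 1.01 to 16.6 ± 0.723 FPKM with a log2(FC) of -0.45.

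Of the 10 genes of the NADH shuttles between cytosol and mitochondria, GOT1, the cytosolic aspartate aminotransferase, was upregulated from 23.7 ± 1.46 to 65.4 ± 3.00 FPKM with a log2(FC) of 1.51. SLC25A12, a mitochondrial carrier of aspartate and glutamate, was downregulated with -0.78, and GPD1L with -0.30. At the entry of pyruvate into mitochondria 3 of 10 tested genes were called, where 34.7% of all tested genes were. They were MPC1, a subunit of the pyruvate carrier, with 0.27, PDP1, the phosphatase that activates pyruvate dehydrogenase, with 0.28, and PDK1, the kinase that shuts it, with -0.32.

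Among 9 tested regulators of glucose uptake and glycolysis 4 were upregulated and 2 downregulated, where 15.8% and 18.9% of all tested genes were. TXNIP, an arrestin that lowers glucose uptake, rose from 50.6 ± 1.88 to 237.8 ± 8.87 FPKM with a log2(FC) of 2.28, and MYC fell from 42.8 ± 0.669 to 26.1 ± 0.918 FPKM with -0.67. HIF1A, named after its value was seen, had a log2(FC) of 0.34. Of 9 targets of HIF-1 outside glycolysis 3 were upregulated and 4 downregulated, where 15.8% and 18.9% of all tested genes were. The largest rise was that of VEGFA, the vascular growth factor, with 2.74, from 6.17 ± 0.189 to 39.8 ± 1.21 FPKM. The largest fall was that of EGLN3, a prolyl hydroxylase, with -1.59, from 0.65 ± 0.062 to 0.21 ± 0.041 FPKM on only 24 to 104 counts.

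**Figure D4:**
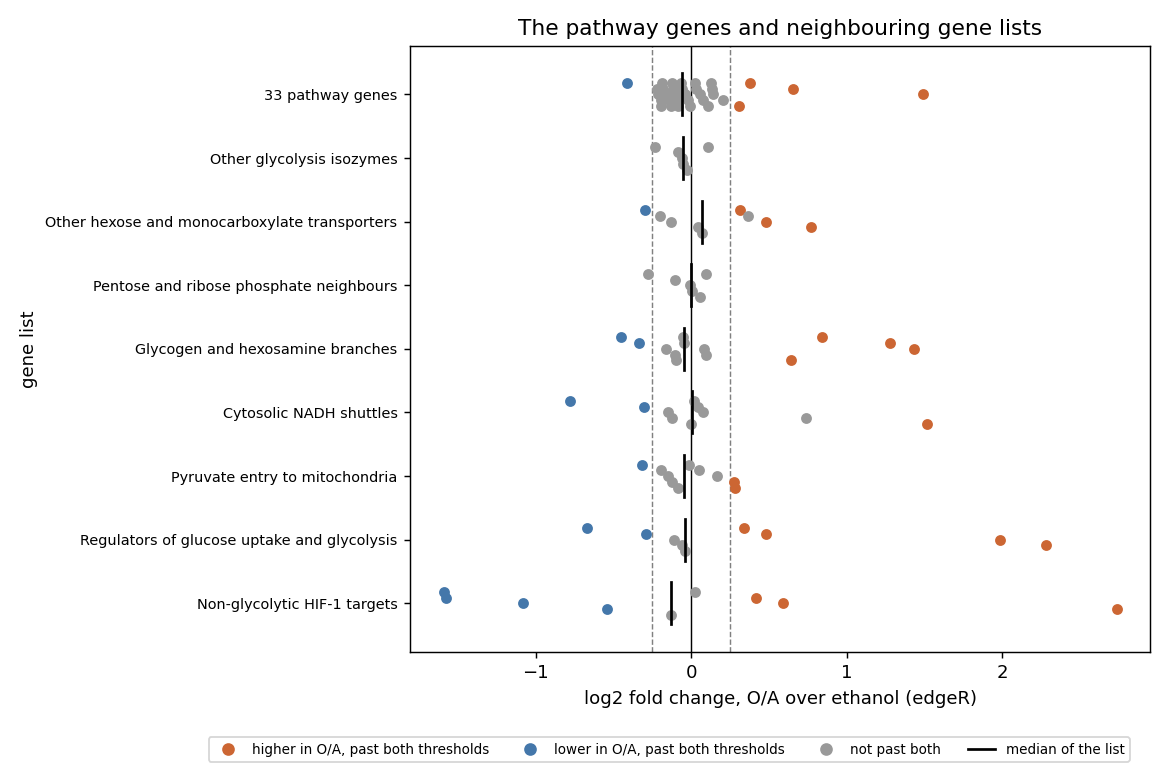
The log2(FC) of each tested gene, O/A over ethanol, from the edgeR fit, for the 33 pathway genes and 8 neighbouring lists; each dot is a gene, coloured by whether it passed both limits and in which direction, the black bar is the median of the list and the dashed lines mark 0.25 on either side of 0. Most pathway genes lie between the dashed lines. In the neighbouring lists VEGFA at 2.74, TXNIP at 2.28, ARRDC4 at 1.98, GOT1 at 1.51, GFPT1 at 1.43 and GFPT2 at 1.28 lie far to the right. The value of GFPT2 rests on only 5 to 26 counts in a library. EGLN3 at -1.59, ANKRD37 at -1.57 and ADM at -1.08 lie far to the left, with only 24 to 104 counts in a library for EGLN3 and 15 to 85 for ANKRD37.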

How the data were processed

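Polyadenylated RNA of 8 N/TERT-1 cultures, 4 with ethanol and 4 with O/A, was sequenced with paired reads. The authors aligned the cleaned reads to GRCh38.p13 (Ensembl) with HISAT2 2.0.1 and made the deposited counts per gene with HTSeq 0.6.1; the strand setting was not given in the sources used here. The deposited FPKM values equalled count divided by exonic size and library total within 0.005. A further table of the authors' own DESeq2 comparison, with log2 fold changes and p-values, was not used. Of 61806 genes, 41389 had a symbol in the table, 20380 took one from a table of gene names and 37 kept their ID.

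Counts were scaled by TMM and tested with the robust quasi-likelihood fit of edgeR 4.0.16 in R 4.3.3, group only, over the 14893 genes that reached 10 counts in 4 or more libraries, with Benjamini-Hochberg adjustment over all of them. SE was the log2 fold change divided by the square root of F, and intervals were 1.96 SE. Overlap between groups in counts of genes refers to TMM-scaled CPM. The script was tested on simulated data. Alternatives were DESeq2 1.42.0, median-ratio scaling, quantile normalization or FPKM with limma 3.58.1, other filters and fold limits, a replicate block and leaving out each library.

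The members and the neighbouring lists were chosen with earlier results of these data known. By the rule for named genes, members past both limits are given in every library and the others by range; some of the others, chosen after their values were seen, are also given in every library or as mean ± SD. Of each neighbouring list the largest rise and the largest fall are named, or all called genes where 5 or fewer. Counts of libraries within a group differed by more than sampling noise (chi-square over its degrees of freedom 1.76 to 5.74), so each was taken as its own sample.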

Additional observations from a re-analysis of the deposited data

Results flagged for a closer look

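In the 4 ethanol libraries of ENO1, replicate 4 stood apart from the others, at 1897 CPM after TMM scaling where the other 3 had 1979 to 1983. In SLC16A3, ethanol replicate 2 stood apart at 45.4 CPM where the other 3 had 47.2 to 47.3. Both were found by setting the gap to the nearest library against the range of the group, in each group of each of the 33 genes, and such a test marks about 1 in 20 groups by chance. In both genes the libraries of the groups still did not overlap.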

How the results depend on the processing

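DESeq2, median-ratio scaling, no filter on low counts and each of the 8 fits without a single library called the same 5 members as edgeR. All calls numbered 4859 with DESeq2, 5190 with median-ratio scaling, 5271 with no filter and 4987 to 5114 without a library. Quantile normalization called 10 members (4 up, 6 down), adding GPI, PFKP, PGAM1, ENO1 and LDHA. It called 5188 genes in all (2445 up, 2743 down), which was 34.8% of those tested. On log2(FPKM + 0.1) 7 were called (4 up, 3 down), adding TIGAR and LDHA, beside 5124 genes in all (1945 up, 3179 down), or 34.4%. On log2(FPKM + 1) 5 were called (3 up, 2 down), with SLC16A3 lost and LDHA gained, and 3923 genes in all (1514 up, 2409 down). With a mean FPKM of at least 5, 30 members were tested and 4 called (4 up, 0 down), since PFKFB4 was no longer tested, and 2183 genes in all (1097 up, 1086 down). With no limit on the fold 24 members (8 up, 16 down) and 7999 genes (3868 up, 4131 down) were called; with a limit of 1, 1 member (1 up, 0 down), SLC2A3, and 797 genes (382 up, 415 down).

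Reversals of sign touched 5 members, and none of these values passed the thresholds. With each library left out in turn, SLC2A1 ran from -0.036 to 0.0027 (positive when Ethanol replicate 3 was out), LDHB from -0.024 to 0.0068 (positive with Ethanol replicate 1 or O/A replicate 2 out, at 0.0040 and 0.0068) and TALDO1 from -0.00042 (O/A replicate 3 out) to 0.062. ALDOC was at -0.0080, -0.015 and -0.015 and TALDO1 at -0.015, -0.023 and -0.022 under quantile normalization, log2(FPKM + 0.1) and log2(FPKM + 1). BSG was at -0.019 under quantile normalization. The cause of these shifts was not tested. Of 525 member values under an alternative, 505 kept their direction and their side of the call by both limits.

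By the adjusted p alone, 15 of the 24 members passed in every alternative that tested them. The other 9 were HK1, GAPDH and BSG, lost under quantile normalization only, and RPE, TPI1, PFKM, PGD, RPIA and TKT, whose losses stand beside their values except that RPIA was also lost under quantile normalization and with no filter, and TKT with median-ratio scaling and with no filter. Of 9 members that did not pass, 6 passed in an alternative: SLC2A1 (-0.09) and LDHB (-0.08) under quantile normalization, PGK1 and ALDOA there, with FPKM and with the stricter filter, ALDOA also without O/A replicate 4, HK2 with median-ratio scaling and without ethanol replicate 2 or 3, and PGLS under quantile normalization and without ethanol replicate 3 or O/A replicate 2.

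Replicate numbers were not taken as pairs, since deviations of same-numbered libraries from their group means correlated at -0.0226 to 0.0675. With the replicate number as a block, 5 members and 5160 genes were called (2354 up, 2806 down).

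Changes under 0.25 on the log2 scale rest on small spreads within 4 libraries a group and on the scaling, which moved the median of all genes by -0.04 between TMM counts and log2(FPKM + 0.1). Gene counts do not resolve isoforms, and the level of protein, flux or lactate was not measured here.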
